A study of Mus musculus with 180 samples.

Results

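The MHC class I presentation genes examined here were B2m, H2-K1, H2-D1, H2-Q6, H2-Q7, H2-T23, Tap1, Tap2, Tapbp and Nlrc5. These 10 genes were chosen by name, with earlier results of these data known, and all 10 were among the 14825 genes listed in the deposited table of TPM values, which give transcript abundance per length as a share of each cell's total. They were followed in 180 single cells of 4 murine haematopoietic populations, on a pure C57BL/6 background. All 4 populations came from mice that carried Rosa LSL-Hoxb5-EGFP/+, a silent Hoxb5 cassette that Cre recombinase opens.

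The 47 CD11b+CD48+SK cells (Sca1+ c-Kit+) were donor-derived cells taken at week 8 after transplantation from primary recipients. Multipotent progenitors (MPP) of Mx1cre/Rosa LSL-Hoxb5-EGFP/+ mice had been given, with helper cells, to lethally irradiated CD45.1+ C57BL/6 recipients. Recipients were injected with pIpC, an inducer of interferon, from days before to days after transplantation. It opened the cassette through the interferon-responsive Mx1 promoter. The 41 WT-MPP and the 36 adult bone marrow HSC (BM HSC) came from mice aged 8 weeks with the cassette unopened. The 56 fetal liver HSC (FL HSC) were sorted at E14.5 (embryonic day) as Mac1+CD150+ cells within the CD45.2+Lin-Sca1+c-Kit+ fraction, although the source field of their labels reads bone marrow. CD11b+CD48+SK cells thus differed from WT-MPP in Hoxb5, Cre, pIpC, the irradiated host and the surface gate at once, and these cannot be told apart.

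MHC class I molecules carry peptides made inside the cell to its surface, where CD8+ T cells and natural killer cells read them. Each molecule pairs a polymorphic heavy chain with the invariant light chain beta-2-microglobulin, encoded by B2m. Peptides cut by the proteasome are pumped into the endoplasmic reticulum by the Tap1-Tap2 transporter, and tapasin (Tapbp) holds the empty molecule at that pump until a peptide is bound. Nlrc5 is the transactivator of class I promoters, acting with factors on the conserved X and Y boxes, while interferons and NF-kB act on a separate upstream enhancer. Class I molecules are found on nearly all nucleated cells, and are generally sparse in the early embryo.

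In GENCODE M21 (GRCm38), B2m lies at chr2:122147686-122153083 and Nlrc5 at chr8:94434356-94527272, both on the plus strand. The other 8 members lie in the MHC region of chromosome 17, from Tapbp at chr17:33915899-33929292 to H2-T23 at chr17:36029773-36032855. H2-K1 is at chr17:33996017-34000347 and H2-D1 at chr17:35262730-35267499. H2-Q6 and H2-Q7 are neighbours, at chr17:35424850-35430055 and chr17:35439155-35443773. Tap1 at chr17:34187553-34197225 overlaps Psmb9 by 212 bases on the opposite strand, and Tap2 follows at chr17:34203527-34216321. B2m and H2-T23 also lie within genes of the opposite strand, and Tapbp, Tap2 and Nlrc5 overlap other genes in part. Whether strand was used in the estimation is not given in the sources used here, so reads in an overlap cannot be told apart.

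Promoter sequence was found in the RefSeq table (GRCm38.p6) for 8 of the 10 members, all but Tap2 and Nlrc5. The 250 bases before each start were searched on both strands for GAANNGAAA (the core of an interferon response element), GGGNNTTCC (NF-kB), TGACG (the X2 or CRE letters) and CCAAT (Y box). Shown here are the stretches that hold the upstream enhancer letters of the heavy chains and the TGACG letters of B2m and Tap1. Capitals mark the matched letters, 5′ to 3′ on the strand of the gene. The NF-kB letters come first, the interferon element core follows on the reverse strand as TTTCACTTC, and TGACG, where it is within the stretch, comes last.
H2-K1, chr17:34000378-34000464, minus strand: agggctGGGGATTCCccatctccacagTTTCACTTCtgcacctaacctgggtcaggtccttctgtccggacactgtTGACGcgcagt
H2-D1, chr17:35262917-35263003, plus strand: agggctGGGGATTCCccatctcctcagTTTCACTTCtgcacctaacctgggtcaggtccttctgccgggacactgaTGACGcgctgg
H2-Q7, chr17:35439016-35439101, plus strand: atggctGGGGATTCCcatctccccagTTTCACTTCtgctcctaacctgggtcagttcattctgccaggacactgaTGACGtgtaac
H2-Q6, chr17:35424671-35424712, plus strand: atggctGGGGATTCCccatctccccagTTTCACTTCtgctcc
B2m, chr2:122147603-122147619, plus strand: gactggTGACGacctcc
Tap1, chr17:34187464-34187480, plus strand: gacaggTGACGacagag

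The interferon element core and the NF-kB letters were each found in 4 of the 8 members, H2-K1, H2-D1, H2-Q6 and H2-Q7, against 6.31% and 4.98% of the 32851 promoter windows in the table. TGACG was found in 5 of 8 (B2m, H2-K1, H2-D1, H2-Q7 and Tap1), against 17.8% of all windows. CCAAT was found in 8 of 8, against 33.8%. The Tap1 stretch shown is also part of the Psmb9 promoter window, read from the other strand, since these genes are divergent. A match is a description of letters and not of a bound site.

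B2m was the most abundant of the members and, by mean TPM, ranked 1 among all listed genes in CD11b+CD48+SK, WT-MPP and BM HSC. In FL HSC it ranked 4. The median B2m TPM over cells was 12301 in CD11b+CD48+SK, 14609 in WT-MPP and 14958 in BM HSC, against 4763 in FL HSC. The lowest and the highest cell stood at 7788 and 19661 TPM in CD11b+CD48+SK, 8343 and 38218 in WT-MPP, and 6382 and 59717 in BM HSC, against 1911 and 14459.6 in FL HSC. The quartile ranges of the 3 adult populations overlapped, and that of FL HSC lay below each of them. Of the 56 FL HSC, 46 lay below the lowest CD11b+CD48+SK cell, 47 below the lowest WT-MPP and 41 below the lowest BM HSC. B2m was at 1 TPM or above in each of the 180 cells, but the study used a B2m and Gapdh assay to admit amplified cDNA, so presence of B2m was in part a condition of entry.

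H2-K1 and H2-D1 encode the classical heavy chains of the b haplotype. Their medians in the adult populations stood between 3053 and 4531 TPM. The median of H2-K1 was 3531 TPM in CD11b+CD48+SK, 3427 in WT-MPP and 4531 in BM HSC, against 1134 in FL HSC. The lowest and highest H2-K1 values were 93.7 and 6837 TPM in CD11b+CD48+SK, 293 and 8070 in WT-MPP, and 691 and 8014 in BM HSC, against 2.38 and 4957 in FL HSC. For H2-D1 the medians were 3053, 3232, 4012 and 1187 TPM in the same order. The lowest and highest H2-D1 cells were at 1088 and 5858 TPM in CD11b+CD48+SK, 65.5 and 8162 in WT-MPP, and 733 and 7477 in BM HSC, against 218 and 4662 in FL HSC. Both genes were present in every cell of every population, where present means a TPM of 1 or more. The FL HSC quartile range lay below the others for both genes, while the whole ranges overlapped, and 55 of the 56 FL HSC stood under the BM HSC median for each gene. Among the adult populations the quartile ranges overlapped for both.

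H2-T23 encodes Qa-1, a non-classical heavy chain that shows signal peptides of other class I chains to NKG2A receptors. Its median was 592 TPM in CD11b+CD48+SK, 922 in WT-MPP and 1029 in BM HSC, against 458 in FL HSC. The lowest and highest cells were at 26.9 and 2099 TPM in CD11b+CD48+SK, 16.03 and 3379 in WT-MPP, and 6.51 and 2248 in BM HSC, against 0 and 2524 in FL HSC. It was present in all adult cells and in 54 of the 56 FL HSC (96.4%, exact Clopper-Pearson 95% interval 87.7 to 99.6%, which here and below covers the counting of cells only and is no comparison of populations). The quartile ranges of all 4 populations overlapped, unlike those of B2m, H2-K1 and H2-D1.

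H2-Q6 and H2-Q7 encode Qa-2 heavy chains. They had the greatest gap between adult and fetal cells among the members. The median of H2-Q7 was 278 TPM in CD11b+CD48+SK, 293 in WT-MPP and 399 in BM HSC, against 0 in FL HSC. The lowest and highest H2-Q7 values were 4.45 and 1254 TPM in CD11b+CD48+SK, 1.02 and 1344 in WT-MPP, and 0.376 and 1191 in BM HSC, against 0 and 128 in FL HSC. H2-Q7 was present in 47 of 47 CD11b+CD48+SK cells, 41 of the 41 WT-MPP, 33 of the 36 BM HSC (91.7%, interval 77.5 to 98.2%) and 5 of the 56 FL HSC (8.93%, interval 2.96 to 19.6%). All 56 FL HSC were below the median of each adult population, and 51 of them were listed at 0.

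H2-Q6 was the more variable within adult cells, with many cells listed at 0. It was present in 30 of 47 CD11b+CD48+SK cells (63.8%, interval 48.5 to 77.3%), 23 of the 41 WT-MPP (56.1%, interval 39.7 to 71.5%), 26 of the 36 BM HSC (72.2%, interval 54.8 to 85.8%) and 3 of the 56 FL HSC (5.36%, interval 1.12 to 14.9%). Its median was 133 TPM in CD11b+CD48+SK, 52.9 in WT-MPP and 228 in BM HSC, against 0 in FL HSC, and its highest cells were at 693, 1066, 929 and 40.4 TPM. The 3 FL HSC with H2-Q6 were also among the 5 with H2-Q7, and 1 of them held 128 TPM of H2-Q7 against 1.08 to 5.37 TPM in the other 4.

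Reads of the H2-Q genes are hard to assign. In GENCODE M21 transcripts, 13.9% of the 50-base words of H2-Q6 were also in H2-Q7, and 17.9% of those of H2-Q7 were in some other class I heavy chain. H2-Q8 and H2-Q9 were listed in the deposited table but not in M21, so their sharing with H2-Q6 and H2-Q7 was not measured. H2-Q9 was present in 31 of 47 CD11b+CD48+SK cells against 5 of the 41 WT-MPP, 9 of the 36 BM HSC and 0 of the 56 FL HSC, which allows a share of up to 5.36% when 3 cells are taken as the limit for a count of 0. A division of reads between near copies that differed between cells would move single H2-Q genes, and its part was not tested. Reads divided among the H2-Q genes are joined again in the sum over the 9 listed H2-Q genes, but only in part. TPM is per length of each gene, and H2-D1 shared 6.68% of its words with H2-Q1. The sum had a median of 642 TPM in CD11b+CD48+SK, 522 in WT-MPP and 874 in BM HSC, against 12.2 in FL HSC. On the log2(TPM+1) scale, mean sums were 9.22, 8.78, 9.29 and 3.35, lowest in FL HSC as for H2-Q6 and H2-Q7. Some H2-Q gene was present in 47 of the 56 FL HSC, most often H2-Q1, in 47 of 56, and the highest FL HSC sum was 358 TPM.

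**Figure D1:**
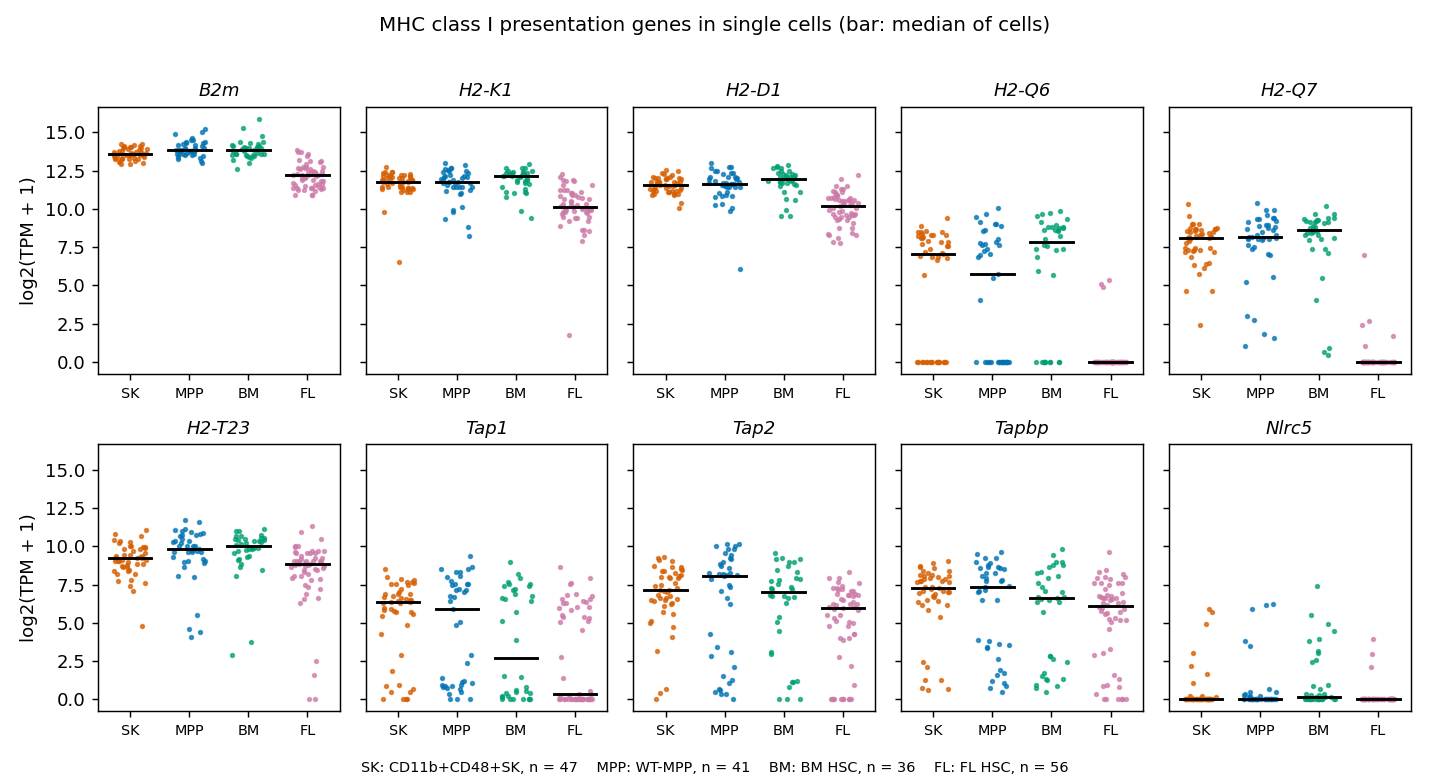
Each panel plots 1 gene, with log2(TPM + 1) on the vertical axis, 1 point for each cell and a bar at the median of each population (47 CD11b+CD48+SK, 41 WT-MPP, 36 BM HSC and 56 FL HSC). B2m, H2-K1 and H2-D1 form a band shifted down in FL HSC, while 51 of the 56 FL HSC sit at 0 for H2-Q7 and 53 of 56 for H2-Q6.

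The peptide transporter was less evenly detected. Tap1 was present in 38 of 47 CD11b+CD48+SK cells (80.9%, interval 66.7 to 90.9%), 29 of the 41 WT-MPP (70.7%, interval 54.5 to 83.9%), 20 of the 36 BM HSC (55.6%, interval 38.1 to 72.1%) and 26 of the 56 FL HSC (46.4%, interval 32.99 to 60.3%). Its median was 79.9 TPM in CD11b+CD48+SK, 58.6 in WT-MPP and 7.72 in BM HSC, against 0.278 in FL HSC, with highest cells at 361, 645, 507 and 399 TPM.

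Tap2 stood above Tap1 in median TPM in all 4 populations. Its median was 137 TPM in CD11b+CD48+SK, 269 in WT-MPP and 130.3 in BM HSC, against 60.3 in FL HSC, and its highest cells reached 619, 1124, 763 and 320.3 TPM. It was present in 44 of 47, 35 of 41, 32 of 36 and 45 of 56 cells, shares of 93.6%, 85.4%, 88.9% and 80.4%. The median over cells of the Tap1 to Tap2 ratio was 0.494 in CD11b+CD48+SK, 0.310 in WT-MPP and 0.274 in BM HSC, against 0.00597 in FL HSC, after leaving out 3, 6, 4 and 11 cells with Tap2 below a TPM of 1. In FL HSC this ratio ran from 0 to 13.5, with an upper quartile of 1.16, and 30 of the 56 cells had Tap1 below 1 TPM. The ratio of the mean TPM values ran the other way, at 0.470, 0.362 and 0.404 in the adult populations and 0.572 in FL HSC, so no order of the populations is read from either. Both transporter genes were present together in 36 of 47, 26 of 41, 18 of 36 and 22 of 56 cells. Neither was present in 1, 3, 2 and 7 cells.

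Tapbp, encoding tapasin, had medians of 151 TPM in CD11b+CD48+SK, 164 in WT-MPP and 96.3 in BM HSC, against 67.8 in FL HSC. Its lowest values were 0.555, 0.400, 0.367 and 0 TPM, and its highest 520.4, 795, 911 and 784 TPM. It was present in 44 of 47, 38 of 41, 32 of 36 and 46 of 56 cells, and its quartile ranges overlapped throughout.

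Nlrc5 was the scarcest member. It was present in 7 of 47 CD11b+CD48+SK cells (14.9%, interval 6.20 to 28.3%), 5 of the 41 WT-MPP (12.2%, interval 4.08 to 26.2%), 10 of the 36 BM HSC (27.8%, interval 14.2 to 45.2%) and 3 of the 56 FL HSC (5.36%, interval 1.12 to 14.9%). The highest cells held 59.5, 73.9, 172 and 14.51 TPM. Nlrc5 transcript was thus below 1 TPM in most cells of every population, while all cells had H2-K1 and H2-D1 present.

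Counted per cell, CD11b+CD48+SK cells had a median of 9 of the 10 members present, WT-MPP and BM HSC 8, and FL HSC 6. At least 9 members were present in 25 of 47 CD11b+CD48+SK cells (53.2%, interval 38.1 to 67.9%), 17 of the 41 WT-MPP (41.5%, interval 26.3 to 57.9%), 15 of the 36 BM HSC (41.7%, interval 25.5 to 59.2%) and 1 of the 56 FL HSC (1.79%, interval 0.0452 to 9.55%). Together the members made up a median of 2.07% of a cell's TPM in CD11b+CD48+SK, 2.54% in WT-MPP and 2.69% in BM HSC, against 0.727% in FL HSC. The number of genes present per cell had a median of 5206.5 in FL HSC and of 4514, 3844 and 4441.5 in the adult populations.

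Within cells, B2m and the heavy chains kept a similar ratio although both were lower in FL HSC. The summed TPM of the 21 listed heavy chains had a median of 8270.1 in CD11b+CD48+SK, 9392 in WT-MPP and 11032 in BM HSC, against 2988 in FL HSC. The median over cells of B2m divided by that sum was 1.52 (quartiles 1.32 and 1.75) in CD11b+CD48+SK, 1.49 (1.20 and 2.11) in WT-MPP and 1.28 (1.03 and 1.70) in BM HSC, against 1.54 (1.28 and 2.03) in FL HSC. All 4 quartile ranges overlapped. A few adult cells stood far above, at 77.4 among WT-MPP, 22.4 among BM HSC and 6.64 in CD11b+CD48+SK, while the highest FL HSC was at 3.23. H2-K1 divided by H2-D1 had medians of 1.06, 1.001, 1.03 and 1.24, with overlapping quartile ranges.

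The share of H2-Q genes in the heavy chain TPM was lower in FL HSC than in each adult population. That of H2-T23 was higher in FL HSC, with overlapping quartile ranges. Of the mean heavy chain TPM, H2-K1 supplied 42.6% in CD11b+CD48+SK, 39.7% in WT-MPP and 39.8% in BM HSC, against 43.3% in FL HSC. H2-D1 supplied 38.2%, 37.6%, 38.2% and 37.5%. The H2-Q genes supplied 8.09%, 7.15% and 8.46% in the adult populations and 0.666% in FL HSC. H2-T23 supplied 8.21%, 11.8% and 10.12% in the adult populations and 14.9% in FL HSC. Per cell, the quartiles of the H2-T23 share were 4.93 and 10.8% in CD11b+CD48+SK and 5.51 and 15.9% in WT-MPP. They were 8.12 and 12.6% in BM HSC, and 7.75 and 25.1% in FL HSC. H2-K1 and H2-D1 together thus supplied most of the heavy chain TPM in each population. H2-L, which C57BL/6 mice lack as part of their b haplotype, was still listed at a mean of 38.6, 43.9, 47.5 and 9.88 TPM.

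**Figure D2:**
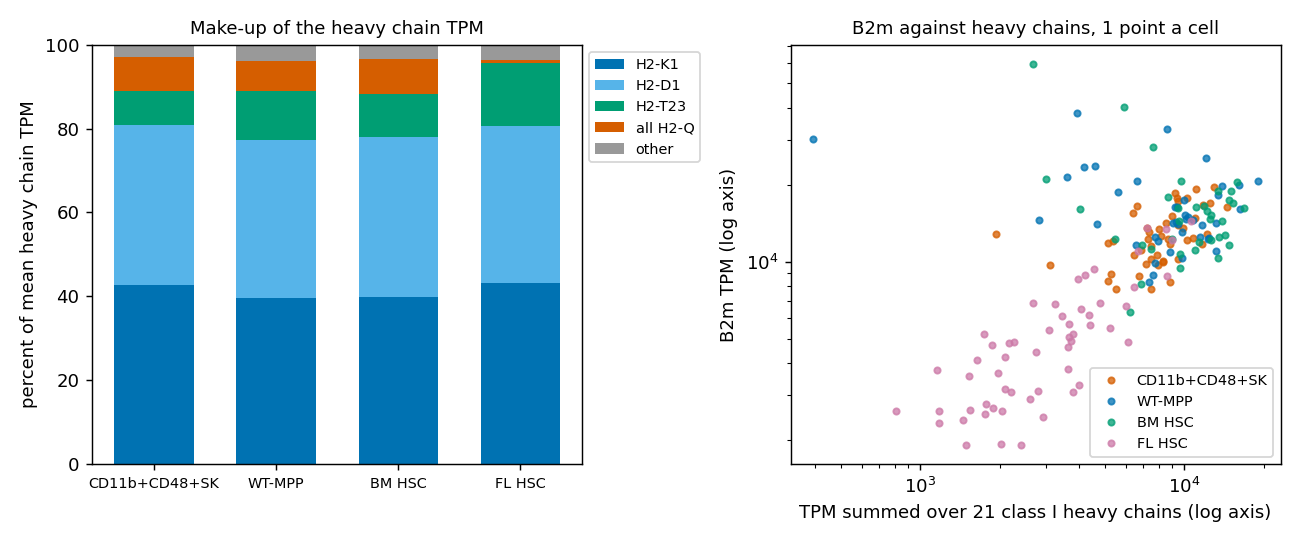
Left, stacked bars of the percent of the mean heavy chain TPM supplied by H2-K1, H2-D1, H2-T23, the 9 H2-Q genes and the other listed chains in each population. Right, B2m TPM against the summed heavy chain TPM on log axes, 1 point a cell; FL HSC lie at the lower left along the same ratio, with a median of 1.54, and a few WT-MPP and BM HSC lie above it.

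Differences between populations were taken as the difference of the mean over cells of log2(TPM+1). The labels tie no cell to an animal, so each population counts as 1 sample and no test was run, and the spread given is that between cells. A gene was counted as higher or lower where the difference was 1 or more in size, among 10856 genes that reached 1 TPM in 10% or more of the cells in some population. All 10 members passed this filter. H2-Q6, H2-Q7 and Nlrc5 did so only through adult populations, as they were present in 5.36%, 8.93% and 5.36% of FL HSC. A call of higher in FL HSC was thus hardly possible for them. The same count over all filtered genes is the background for each count of members.

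FL HSC were set against BM HSC to compare fetal with adult stem cells. These populations differed in tissue as well as in age, and the FL HSC gate required Mac1. Age, tissue and gate cannot be told apart here. In FL HSC 8 of 10 members were lower and 0 higher, where 5.44% of all genes were lower and 25.6% higher. Among these 8, H2-Q6, H2-Q7 and Nlrc5 had passed the filter only through adult populations. The median member differed by -1.54 and the median gene by 0.31. H2-Q7 differed by -7.59 and H2-Q6 by -5.74, ranks 2 and 6 from the lowest of all genes. B2m differed by -1.71 (13.89, SD 0.59 over 36 BM HSC, and 12.17, SD 0.76 over 56 FL HSC). H2-K1 and H2-D1 both differed by -1.74, H2-T23 by -1.36, Nlrc5 by -1.11 and Tap2 by -1.07. Tap1 at -0.86 and Tapbp at -0.31 were below 0 but under the threshold in size.

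Against WT-MPP, FL HSC again had 8 of 10 members lower and 0 higher, where 3.08% of all genes were lower and 33.9% higher. H2-Q7 differed by -7.36 and H2-Q6 by -4.12, and both had passed the filter only through adult populations. B2m differed by -1.77, Tap1 by -1.75, H2-D1 by -1.46, H2-K1 by -1.44, Tap2 by -1.33 and H2-T23 by -1.22. Tapbp at -0.82 and Nlrc5 at -0.53 were under the threshold in size. The 3 comparisons with FL HSC share those cells.

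Against CD11b+CD48+SK, FL HSC had 8 of 10 members lower and 0 higher, where 4.02% of all genes were lower and 20.9% higher. H2-Q7 differed by -7.46 and H2-Q6 by -4.69, and both had passed the filter only through adult populations. The transporter genes followed, Tap1 at -2.46 and Tap2 at -1.87, with H2-K1 and H2-D1 both at -1.52, B2m at -1.43 and Tapbp at -1.38. H2-T23 at -0.86 and Nlrc5 at -0.37 were under the threshold in size. The median member differed by -1.52 and the median gene by 0.32. Of 7 reference genes 2 were lower, Gapdh at -1.09 and Ppia at -1.04, and 1 was higher, Tbp at 1.44. The median reference gene differed by -0.51 here, by 0.17 against WT-MPP and by 0.002 against BM HSC.

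FL HSC also differed in markers of other cells. Of 8 erythroid marker genes 6 were listed, and their summed TPM ran from 104 to 11606 in FL HSC with a median of 2406, against adult medians of 0, 0 and 39.5. Hbb-b1 and Hbb-b2 carried most of it, in 55 and 56 of 56 cells, while Klf1 was present in 2 cells and Hba-a1 in 1. Rescaling TPM without the haemoglobin genes and the members left all 12 counts of members higher or lower as they were. The sum of 5 listed macrophage and dendritic markers had a median of 40.1 TPM in FL HSC and 0 in each adult population. Cd68, present in 29 of 56 FL HSC against 8 of 47, 10 of 41 and 7 of 36 adult cells, carried most of it. C1qa, C1qb, C1qc and Emr1 were present in 2, 3, 6 and 1 FL HSC, and the part of these markers in the result was not tested.

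CD11b+CD48+SK cells were set against WT-MPP to compare progeny of Hoxb5-expressing MPP with MPP. None of the 10 members differed by 1 or more in either direction, where 19% of all genes were higher and 5.01% lower. The largest member differences were 0.72 for Tap1, 0.57 for H2-Q6, 0.56 for Tapbp and 0.53 for Tap2. These signs depended on the summary. With log2 of the mean TPM in place of the mean of log2 values, they became -0.37 for Tap1, -0.20 for H2-Q6, -0.27 for Tapbp and -0.75 for Tap2. With log2 of the median TPM, Tap1 and H2-Q6 were at 0.44 and 1.32, and Tapbp and Tap2 at -0.12 and -0.96. B2m differed by -0.34, H2-T23 by -0.37 and Nlrc5 by -0.16. H2-K1 at 0.08, H2-D1 at 0.06 and H2-Q7 at 0.10 were within the spread between cells, whose SDs were 0.52 to 2.36 for these genes. The median gene differed by 0.21.

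Against BM HSC, CD11b+CD48+SK cells had 2 of 10 members higher, where 13.4% of all genes were higher, and 1 lower, where 11.8% were lower. The higher members were Tap1 at 1.604 (5.26, SD 2.68 over 47 cells, and 3.66, SD 3.44 over 36 cells) and Tapbp at 1.07. Tap2 differed by 0.80. With log2 of the mean TPM the differences of Tap1 and Tapbp were 0.22 and 0.01, and the mean of Tap2 was 195 TPM in both populations. The lower member was H2-Q6 at -1.05. B2m at -0.28, H2-K1 at -0.23, H2-D1 at -0.22 and H2-Q7 at -0.13 were near 0. These counts are close to the background shares, and single members cross the threshold by less than the SD between cells.

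WT-MPP against BM HSC compared adult progenitors with stem cells. Here 0 of 10 members were higher, where 2.67% of all genes were higher, and 1 was lower, where 14.49% were lower. That member was H2-Q6 at -1.63. Tap1 at 0.89 and Tapbp at 0.51 were above 0, and B2m at 0.05 was the closest to 0.

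**Figure D3:**
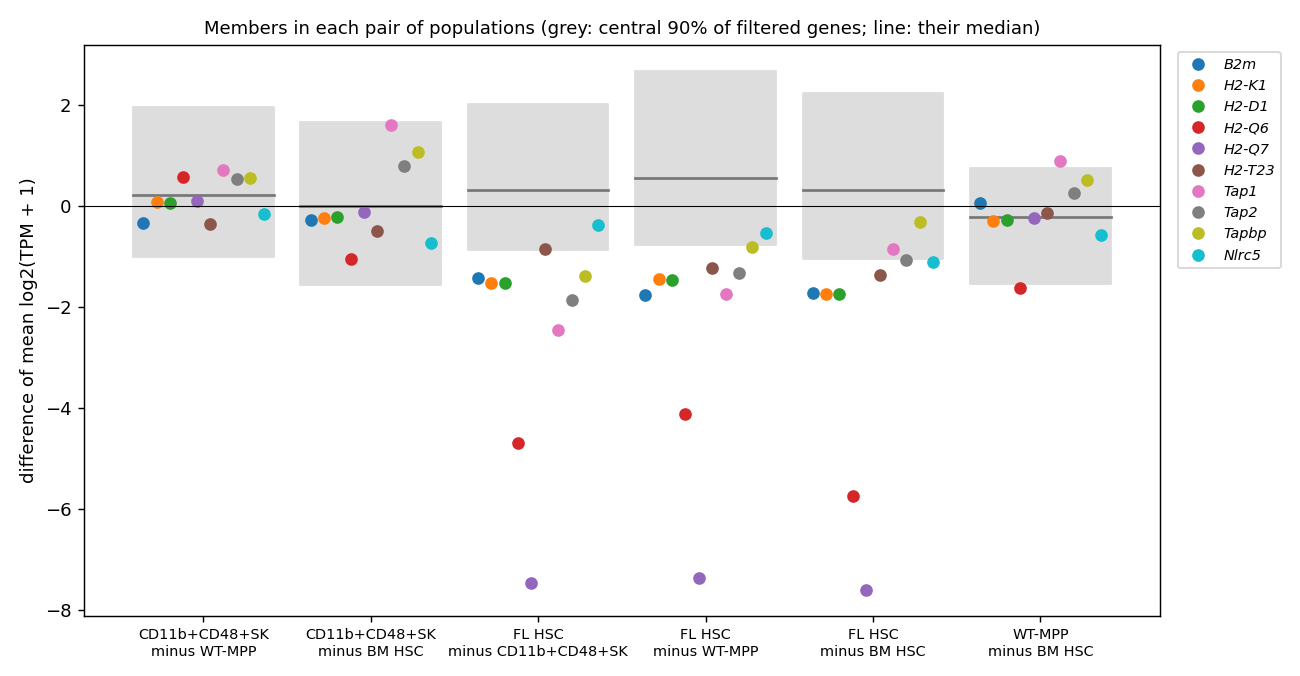
Points give the difference of mean log2(TPM + 1) for each of the 10 members in the 6 pairs of populations; the grey box spans the central 90% of the 10856 filtered genes and the line in it is their median. In the 3 pairs with FL HSC all 10 members lie below 0, with H2-Q7 between -7.36 and -7.59, while in the adult pairs most lie inside the grey box.

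The neighbours of the members on chromosome 17 were compared in the same way. Between the M21 positions of Tapbp and H2-T23, RefSeq placed 91 listed genes other than members, class I heavy chains and class II genes. Of these, 71 passed the filter. In FL HSC against BM HSC 1 of these 71 was lower (1.41%, beside 5.44% of all genes) and 23 were higher, and against WT-MPP 1 was lower (1.41%, beside 3.08%) and 28 were higher. Against CD11b+CD48+SK 4 were lower (5.63%, beside 4.02%) and 12 higher. The lower shares were thus near or under those of all genes. The neighbours include Psmb8 and Psmb9, proteasome genes of the class I pathway. Psmb9 was lower against WT-MPP at -1.20. Against CD11b+CD48+SK Psmb9 was at -2.03 and Psmb8 at -1.36. The neighbours' median differences were 0.47, 0.59 and 0.21, while the 8 members in the interval had medians of -1.55, -1.45 and -1.69.

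Other heavy chain genes that passed the filter were lower in FL HSC or differed by less than the threshold. Of 22 sought, 16 were listed and 11 passed the filter. H2-Q4, H2-Q5, H2-Q9 and H2-K2 were present in under 10% of FL HSC and passed only through adult populations. A call of higher in FL HSC was thus hardly possible for them. H2-Q2, H2-Q10 and H2-Bl, each present in 1 FL HSC and in no adult cell, did not pass. In FL HSC 7 of 11 were lower against BM HSC, 5 against WT-MPP and 6 against CD11b+CD48+SK, and 0 were higher in any of the 3. In the same order 5.44%, 3.08% and 4.02% of all genes were lower, and 25.6%, 33.9% and 20.9% higher. H2-Q5 differed by -3.34 and H2-Q8 by -2.41 against BM HSC, and H2-Q9 by -4.99 against CD11b+CD48+SK. H2-M3, which presents formylated peptides, was at -0.46 against BM HSC. H2-Q9 was higher in CD11b+CD48+SK than in WT-MPP by 4.004 and than in BM HSC by 3.02, and H2-Q5 was higher than in WT-MPP by 1.19; for both genes the limit on near copies holds.

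Correlations among members within a population describe which cells held more of several genes at once. They were computed as Spearman rho on TPM for the 45 pairs of members. All cells of a population share their sort, and every TPM value shares the cell's total, so no test was made. The median rho over pairs was 0.08 in CD11b+CD48+SK, 0.09 in WT-MPP and 0.11 in BM HSC, against 0.24 in FL HSC. In the same order, 33, 27, 33 and 41 of the 45 pairs were above 0. In FL HSC, H2-Q6 and Nlrc5 were each listed at 0 in 53 of 56 cells and H2-Q7 in 51. The FL HSC rho of pairs with these genes, also counted in the median, thus rests on few cells.

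The pair with the highest mean rho over populations was H2-K1 and H2-D1, with rho of 0.54 in CD11b+CD48+SK, 0.49 in WT-MPP and 0.70 in BM HSC, against 0.73 in FL HSC. H2-K1 and H2-Q6 followed, with 0.29, 0.57, 0.44 and 0.36, and then H2-D1 and H2-Q6 with 0.17, 0.42, 0.55 and 0.36. In FL HSC both pairs with H2-Q6 rest on the 3 cells with that gene present. Heavy chain pairs share sequence, and 5.43% of the 50-base words of H2-K1 were also in H2-D1. The lowest means belonged to B2m and Tap2, with 0.12, -0.36, -0.28 and 0.12, to Tap2 and Nlrc5, with -0.10, -0.10, -0.13 and 0.02, and to H2-K1 and Nlrc5, with -0.04, -0.22, -0.01 and 0.08.

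The pairs of B2m with the classical heavy chains were chosen for description after their values were seen. With H2-D1 its rho was 0.75 in FL HSC and 0.39 in CD11b+CD48+SK, but 0.05 in BM HSC and -0.31 in WT-MPP. With H2-K1 it was 0.73, 0.45, -0.07 and -0.14 in the same order. After cells were scaled by the median ratio of their expressed genes, the WT-MPP values became 0.15 with H2-D1 and 0.24 with H2-K1, and the BM HSC values 0.25 and 0.18. B2m also moved with the number of genes present in a cell, with rho of -0.55 in CD11b+CD48+SK, -0.48 in WT-MPP and -0.36 in BM HSC, against -0.13 in FL HSC. The partial rho of B2m with H2-D1, given that number, was 0.75, 0.32, 0.14 and -0.30 in FL HSC, CD11b+CD48+SK, BM HSC and WT-MPP.

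**Figure D4:**
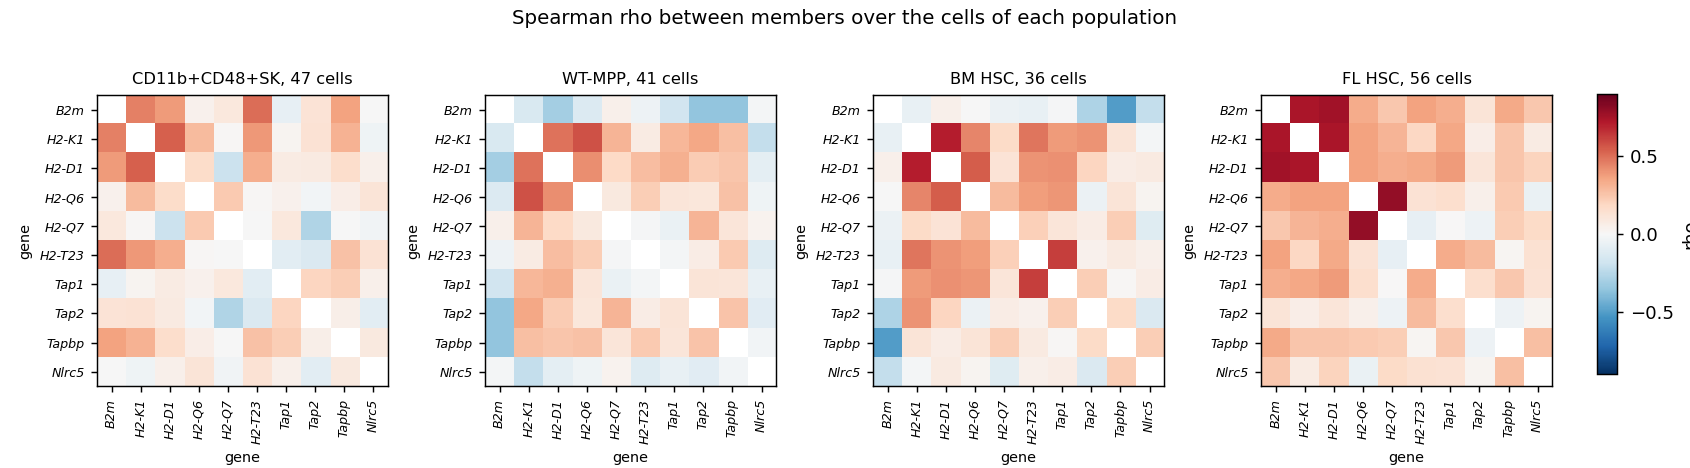
Heat maps of Spearman rho between the 10 members, on both axes, over the cells of each population; red is above 0 and blue below. The H2-K1 and H2-D1 square is red in all 4 maps (0.49 to 0.73), whereas B2m with either of them is red in FL HSC and CD11b+CD48+SK and near 0 or blue in BM HSC and WT-MPP.

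The genes most like the class I core were ranked by their mean rho, over the 4 populations, with the cell mean of standardised H2-K1, H2-D1 and B2m. Among 2547 genes present in 50% or more of the cells in all 4 populations, the median had a mean rho of -0.02 and the 95th percentile was 0.18. Outside the members, H2-Q1 came first at 0.70, ranging from 0.56 to 0.83. H2-Q1 shares 50-base words with other class I chains, 22.3% of its own, and the part of this sharing was not tested. Also among the highest were Ypel3 at 0.43, Tprgl at 0.40, Pik3ip1, an inhibitor of phosphoinositide 3-kinase, at 0.36 and Txnip, the thioredoxin-interacting protein, at 0.36. Sesn1, a sestrin, was at 0.35, Psap, the saposin precursor, at 0.34, Shisa5 at 0.34 and Sirt3, a mitochondrial deacetylase, at 0.33. Single populations differed for some of these. Sesn1 was at 0.70 in BM HSC but 0.05 in FL HSC, and Psap at 0.47 in both CD11b+CD48+SK and BM HSC but 0.06 in FL HSC. Sirt3 was at 0.62 in CD11b+CD48+SK but 0.07 in WT-MPP. Among the members outside the score, H2-T23 was at 0.34, Tapbp at 0.16 and Tap2 at 0.13; the other 4 were present in too few cells to be ranked.

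The proteasome cuts the peptides. Psmb8, Psmb9 and Psmb10 replace the constitutive subunits Psmb5, Psmb6 and Psmb7 in the immunoproteasome, and Psme1 and Psme2 form the PA28 cap. Of these 5 immunoproteasome and PA28 genes, 4 were higher in CD11b+CD48+SK than in BM HSC (Psmb10 at 1.57, Psmb9 at 1.56, Psme2 and Psmb8 at 1.21 and 1.20) and 2 higher than in WT-MPP (Psme2 at 1.35 and Psmb10 at 1.19), with 0 lower in either, where 13.4% and 19% of all genes were higher. Of the 3 constitutive genes 2 were higher in each comparison, Psmb5 at 1.75 and Psmb7 at 1.18 against BM HSC. Of 7 reference genes 1 was higher in each comparison, Gapdh at 1.17 against BM HSC and Rplp0 at 1.08 against WT-MPP, and their median differences were 0.51 and 0.61. In FL HSC against CD11b+CD48+SK, Psmb9 was lower at -2.03 and Psmb8 at -1.36, and 0 were higher. In that comparison 4.02% of all genes were lower and 20.9% higher.

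The ratio of Psmb8 to Psmb5 differed between fetal and adult cells. The median over cells of Psmb8 divided by Psmb5 was 2.30 in CD11b+CD48+SK, 5.37 in WT-MPP and 3.28 in BM HSC, against 0.732 in FL HSC, after leaving out 4 WT-MPP and 3 BM HSC with a Psmb5 TPM of 0. The FL HSC quartiles were 0.602 and 1.19, below the adult lower quartiles of 1.70, 2.08 and 1.52. Psmb5 itself was present in 35 of the 41 WT-MPP and 32 of the 36 BM HSC and in all cells of the other populations. It was higher in FL HSC than in WT-MPP by 3.32 and than in BM HSC by 2.35. Psmb8, Psmb9 and Psmb10 in FL HSC differed by -0.15, -0.47 and 1.15 against BM HSC, and by -0.90, -1.20 and 0.77 against WT-MPP. Of the 5 immunoproteasome and PA28 genes, 1 was higher and 0 lower against BM HSC, and 0 and 1 against WT-MPP. The shares of all genes were 25.6% and 5.44%, and 33.9% and 3.08%.

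Chaperones and trimming enzymes showed no common direction. Of 7 genes, calreticulin (Calr) was higher in CD11b+CD48+SK than in WT-MPP by 1.02 and than in BM HSC by 1.29, while calnexin (Canx) was lower in FL HSC, at -1.66 against WT-MPP and -1.49 against BM HSC. Erap1, the aminopeptidase that trims class I peptides in the endoplasmic reticulum, was higher in FL HSC than in BM HSC by 1.24. In FL HSC 1 of 7 was higher and 1 lower against BM HSC, 0 and 2 against WT-MPP, and 0 and 0 against CD11b+CD48+SK. Of all genes 25.6% were higher and 5.44% lower against BM HSC, 33.9% and 3.08% against WT-MPP, and 20.9% and 4.02% against CD11b+CD48+SK.

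The median regulator of class I transcription lay near the median gene in the comparisons with FL HSC. It was at 0.37 against BM HSC, 0.47 against WT-MPP and 0.29 against CD11b+CD48+SK, beside 0.31, 0.56 and 0.32. Single regulators spread widely, from -1.95 for Irf2 to 1.11 for Nfyc against BM HSC. Of 12, FL HSC had 2 higher and 1 lower against BM HSC, and 2 higher and 0 lower against WT-MPP. Against CD11b+CD48+SK 0 were higher and 1 lower. The shares of all genes higher and lower were 25.6% and 5.44%, 33.9% and 3.08%, and 20.9% and 4.02% in the same order. Nfyc, a subunit of the Y-box factor, was higher in FL HSC than in WT-MPP by 1.25 and Rela, an NF-kB subunit, by 1.06. Irf1, an activator of class I promoters, was lower in FL HSC, at -1.39 against CD11b+CD48+SK. Irf2, a factor that binds the same elements as Irf1, was lower in CD11b+CD48+SK, at -2.90 against BM HSC and -1.19 against WT-MPP, and lower in FL HSC, at -1.95 against BM HSC. Rfx5, the X-box factor, was present in 5 of 47, 11 of 41, 12 of 36 and 8 of 56 cells.

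Interferon-stimulated genes lay on both sides of 0 in the comparisons with FL HSC. Of 26 filtered interferon-stimulated genes, FL HSC had 13 higher and 3 lower against CD11b+CD48+SK, where 20.9% of all genes were higher and 4.02% lower. Their median difference was 0.91 beside 0.32 for all genes, and the members had 0 higher and 8 lower. Irf7 at 2.45 and Xaf1 at 2.28 were the highest, and Ifi27l2a at -2.08 and Ifi47 at -1.32 the lowest. Against BM HSC 8 were higher and 3 lower, where 25.6% of all genes were higher and 5.44% lower. The median of the interferon-stimulated genes was 0.39 beside 0.31 for all genes. Against WT-MPP 5 were higher, where 33.9% of all genes were, and 3 lower, where 3.08% were, with a median of 0.11 beside 0.56 for all genes. In CD11b+CD48+SK, 4 of the 26 were higher and 8 lower than in WT-MPP, where 19% of all genes were higher and 5.01% lower. The recipients of these cells were given pIpC around transplantation and sampled at week 8 after it. Cells at the time of pIpC were thus not measured. The receptor gene Ifnar2 was higher in CD11b+CD48+SK than in WT-MPP by 2.15 and in FL HSC than in WT-MPP by 2.21.

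MHC class II genes, which present peptides taken up from outside, were also low in FL HSC. Of 9 filtered genes, 8 were lower against CD11b+CD48+SK, 7 against WT-MPP and 5 against BM HSC. The shares of all genes lower were 4.02%, 3.08% and 5.44%. H2-Aa, H2-Ab1, H2-Eb1 and H2-Ob were present in under 10% of FL HSC and passed the filter only through adult populations. H2-DMa was at -6.52 against WT-MPP and H2-Ab1 at -6.34 against CD11b+CD48+SK. Unlike the class I members, 4 of the 9 were higher in CD11b+CD48+SK than in WT-MPP, H2-Ab1 by 3.34 and H2-Ob by 2.86. There 19% of all genes were higher, and the difference between the lists was not tested.

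**Figure D5:**
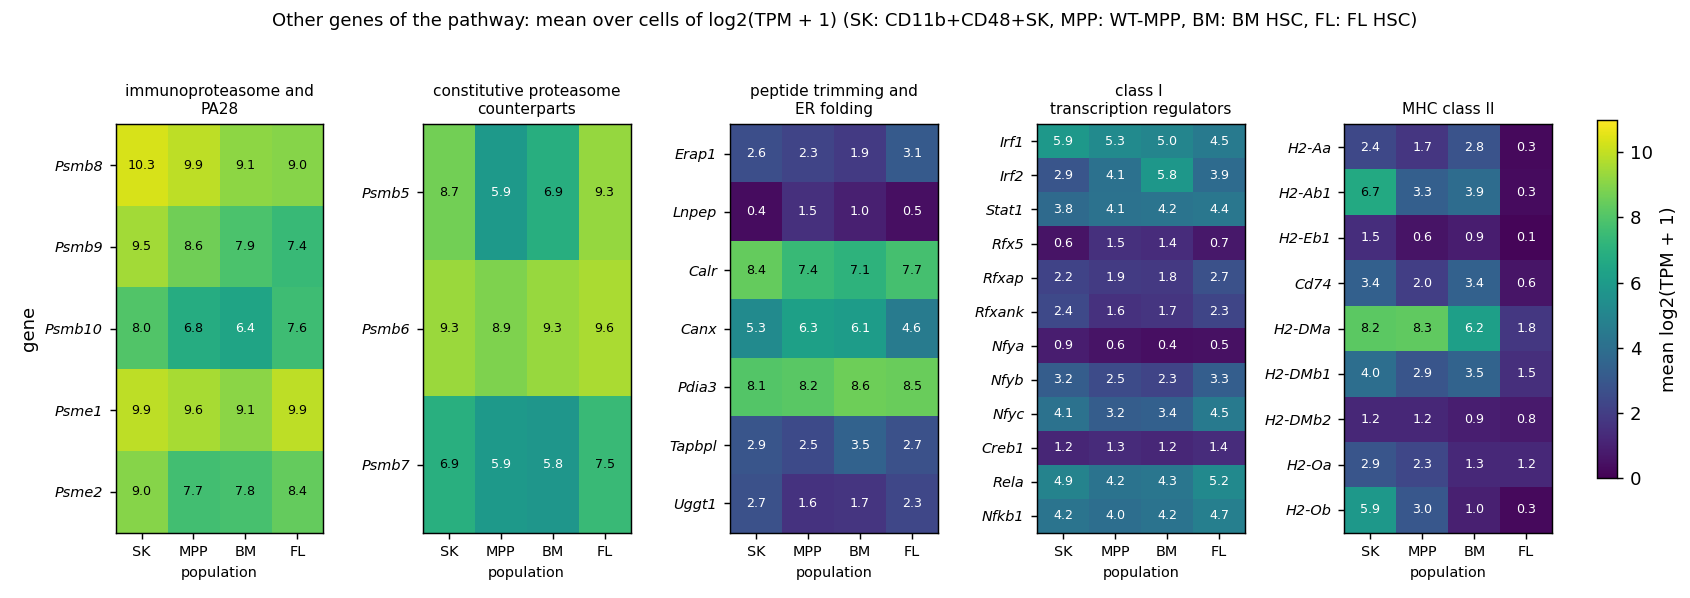
Heat maps of the mean over cells of log2(TPM + 1), printed in each square, for the filtered genes of 5 lists, with genes in rows and the populations in columns. Psmb8 and Psmb9 are highest in CD11b+CD48+SK and lowest in FL HSC, while Psmb5 is at 9.3 in FL HSC and 5.9 in WT-MPP, and the class II genes are at 1.8 or less in FL HSC.

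The labels were checked against transcripts. Cd48 was seen in 47 of 47 CD11b+CD48+SK cells, 7 of the 41 WT-MPP, 1 of the 36 BM HSC and 10 of the 56 FL HSC. Itgam, encoding CD11b or Mac1, was present in 17 of 47, 2 of 41, 1 of 36 and 9 of 56 cells, so it was not detected in most FL HSC although their gate required it. Slamf1 (CD150) was present in 23 of the 36 BM HSC and 31 of the 56 FL HSC against 3 of the 41 WT-MPP. Kit was present in 33, 35, 31 and 48 cells, Ly6a in 43, 40, 36 and 51, and Flt3 in 41, 31, 9 and 30. The summed TPM of 7 HSC markers had a median of 27.8 in CD11b+CD48+SK, 406 in WT-MPP and 783 in BM HSC, against 509.8 in FL HSC. Mast and basophil markers had a median of 144 TPM in CD11b+CD48+SK and 0 elsewhere, T cell, NK cell and liver markers had medians from 0 to 0.293, and B cell markers of 105, 2.72, 193 and 209 TPM in the order above. Of 7 B cell markers 3 were listed, and Cd79b carried most of the sum. Cd79b was present in 29, 26, 27 and 47 cells, Cd79a in 0, 0, 1 and 1, and Vpreb1 in 4, 1, 0 and 7. Granulocyte and monocyte markers had medians of 2038, 1483, 1252 and 1681 TPM, and for all these lists their part in the results was not tested.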

How the data were processed

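Single cells were amplified with the Discover-sc WTA Kit V2, and libraries made with the TruePrep kit were sequenced on a NextSeq 500. The authors aligned reads with HISAT2 2.1.0 and estimated expression with StringTie 1.3.4. The submitters' processing notes also name SAMtools 0.1.19 and the build mm10, and the annotation is not given in the sources used here. The deposited values are TPM per gene and cell with the same sum in each cell, so levels of different genes are per transcript length and the read depth is unknown. The columns of 180 cells were used, and 1 column that matches no label was not used.

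Differences, quantiles, exact Clopper-Pearson 95% intervals and Spearman rho were computed with scipy 1.17.1, pandas 2.3.3 and numpy 2.4.6 (Python 3.11.15), with a pseudocount of 1, presence at a TPM of 1 or more and calls at a difference of 1. Code was tested on simulated data. The labels tie no cell to an animal, so no test between populations was made. Named genes were the 10 members, at most 4 genes per list and comparison with the largest differences in each direction, the 3 highest and 3 lowest of the 45 member pairs by mean rho, the 10 genes most like the core, and the sort markers. Members and lists were chosen with earlier results of these data known. One gene among those most like the core is not reported here. Sequences and positions are from RefSeq and GENCODE M21. Alternatives were other pseudocounts, summaries, scalings, filters, thresholds and cells of middle depth.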

Additional observations from a re-analysis of the deposited data

How the results depend on the processing

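In the comparisons with FL HSC, 8 members were lower at a difference of 1 or more. The count was not 8 under each alternative but stayed within a factor of 1.5, except with a threshold of 2. That threshold left 3 lower against CD11b+CD48+SK, 2 against WT-MPP and 2 against BM HSC. No member difference that passed the threshold changed sign, while smaller ones in the adult comparisons did, among them Tap1, Tapbp, Tap2 and H2-Q6 for CD11b+CD48+SK against WT-MPP with log2 of the mean TPM. Counts in the adult comparisons depended on the settings, and the causes were not tested. For CD11b+CD48+SK against BM HSC, 2 members were higher; the count was 0 with a pseudocount of 10, with log2 of the mean TPM and with a threshold of 2, and 1 with log2 of the median TPM and in cells with 3500 to 5500 genes. In the same comparison 1 was lower, and the count was 2 with a pseudocount of 0.1 and 0 with a pseudocount of 10, the median TPM, cells scaled by the median ratio or a threshold of 2. For CD11b+CD48+SK against WT-MPP, 1 was higher with the median TPM. For WT-MPP against BM HSC, 1 was higher with a pseudocount of 0.1 or scaled cells and 2 with the median TPM, while 2 were lower with a pseudocount of 0.1 and 0 with the mean TPM or a threshold of 2. B2m over H2-K1 and H2-D1 alone had a median of 1.83 in CD11b+CD48+SK. The H2-Q7 difference lay between -4.42 and -10.54 over pseudocounts, and joined H2-Q genes gave -5.87 against CD11b+CD48+SK. With log2 of the mean TPM the median gene moved from 0.21 to -0.32 for CD11b+CD48+SK against WT-MPP and from 0.31 to -0.13 for FL HSC against BM HSC. A filter on presence in 50% of cells raised the share of all genes higher to 33.1% and 23.1% in CD11b+CD48+SK against WT-MPP and BM HSC, and in FL HSC to 33.02%, 56.1% and 43.2% against CD11b+CD48+SK, WT-MPP and BM HSC; lower shares moved to 6.44% for FL HSC against CD11b+CD48+SK, and WT-MPP against BM HSC had 4.34% higher and 22.1% lower. No paired analysis was possible because the labels tie no cell to an animal and no test was made. The unknown read depth limits Nlrc5, Tap1 and H2-Q6, for which absence in a cell may be a failed detection.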

Other observations

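Molecules that resemble class I chains had no common direction. Of 5 listed class I-like genes, Fcgrt, the neonatal Fc receptor that also pairs with beta-2-microglobulin, was present in 6 of 47 CD11b+CD48+SK cells, 11 of the 41 WT-MPP, 20 of the 36 BM HSC and 28 of the 56 FL HSC. It differed by 2.16 in FL HSC against CD11b+CD48+SK and by -2.58 in CD11b+CD48+SK against BM HSC. Cd1d1, which presents lipids to natural killer T cells, was at means of 97.7, 153, 80.5 and 79.4 TPM, and its differences with FL HSC were 0.03, -0.39 and 0.24. Hfe, an iron regulator of the same fold, was lower in WT-MPP than in BM HSC, at -1.28.

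The ligands that mark cells for natural killer cells through the NKG2D receptor were scarce. Ulbp1 was present in 6 of 47 CD11b+CD48+SK cells and 3 of the 56 FL HSC and listed at 0 in WT-MPP and BM HSC, and Raet1d was present in 2 and 5 cells of the same populations. Cd47, a signal against phagocytosis, was present in all 180 cells at means of 624, 661, 645 and 463 TPM. Its differences with FL HSC were -0.58, -0.01 and -0.31, smaller in size than those of B2m, H2-K1 and H2-D1.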
